A study of Mus musculus with 2 samples.

Results

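Collagen genes were taken as all genes whose symbol has the form of a collagen chain (Col, a type number, a, a chain number), which gave 44 genes in the GENCODE M21 annotation. Of these, 35 had at least 1 read of any class in the heart libraries described here, among 16310 annotated genes with a read. The tissue was heart, taken at 14 days of age from females of B6CASTF1/J, which is an F1 hybrid, with no treatment named in the labels. Total RNA (2 µg, with spike-in RNA added) was read by long-read RNA sequencing, in which a single read stands for 1 cDNA molecule and can run through all exons of a transcript. There was 1 group with 2 libraries, replicates 1 and 2, and so no condition was compared. The labels do not clearly name separate animals: a description shared by both libraries speaks of females in the plural, both carry the same donor identifier, and the labels of replicate 2 name the animal in more than 1 way. Intervals and p-values below therefore cover counting error, and any spread between replicates 1 and 2 may be technical.

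Collagens are secreted proteins in which 3 chains wind into a triple helix, a fold that needs glycine at every 3rd residue. Fibrillar collagens (types I, III and V in this tissue) form the fibres between muscle bundles, type IV forms the sheet of basement membranes around cardiomyocytes and vessels, and type VI forms beaded filaments at the cell surface. Fibril-associated collagens decorate fibres, and multiplexins (types XV and XVIII) sit in basement membrane zones. In the heart, fibroblasts are the main known source of fibrillar collagens, and endothelial and mural cells of type IV.

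The helix can be read in the exons themselves, and the following sequences show the unit from which fibrillar collagen genes are built. They are the first 54-base coding exons with a glycine codon at every 9th base in the 3 fibrillar genes with the most reads, from mm10, plus strand, 5′ to 3′, with glycine codons (GGN) in capitals.
Col3a1 exon 6, chr1:45325360-45325413: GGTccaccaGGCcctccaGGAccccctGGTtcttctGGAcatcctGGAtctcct
Col1a1 exon 8, chr11:94939904-94939957: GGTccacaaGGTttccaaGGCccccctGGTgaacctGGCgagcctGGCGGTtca
Col1a2 exon 8, chr6:4515481-4515534: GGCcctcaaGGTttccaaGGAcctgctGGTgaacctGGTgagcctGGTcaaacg
Each of these exons holds whole repeats of 9 bases, a glycine codon followed by 2 others. Over the annotation, the reference transcripts of the 44 collagen genes had a median of 48 exons and 5611 bases, against 7 exons and 2564 bases in 21907 other protein-coding genes.

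Across the 41 collagen genes with internal coding exons, 63.8% of 1915 such exons were a multiple of 9 bases long, against 13.6% of 155796 exons in other protein-coding genes. Exons of exactly 54 bases made up 24.5% in collagens and 0.433% elsewhere. The pattern was strongest in the 11 fibrillar genes, with 83.9% of exons a multiple of 9 and 48.6% exactly 54 bases. In the 6 type IV genes 47.2% were a multiple of 9 and 4.23% had 54 bases, and in the 6 type VI genes the figures were 54.7% and 8.37%. A run of at least 20 glycine codons spaced every 3rd codon was present in 44 of 44 collagen genes and in 20 of 21907 others. Runs of at least 100 were found in 15 collagen genes and 0 others. The longest was in Col3a1, with 344 glycine codons in an unbroken series. Col1a2 and Col5a2 each had 339 and Col1a1 and Col5a1 each 338, whereas Col4a1 had 40 and Col4a2 had 66, since the helix of type IV chains is interrupted. These are properties of the annotation and not measurements of these hearts.

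**Figure D1:**
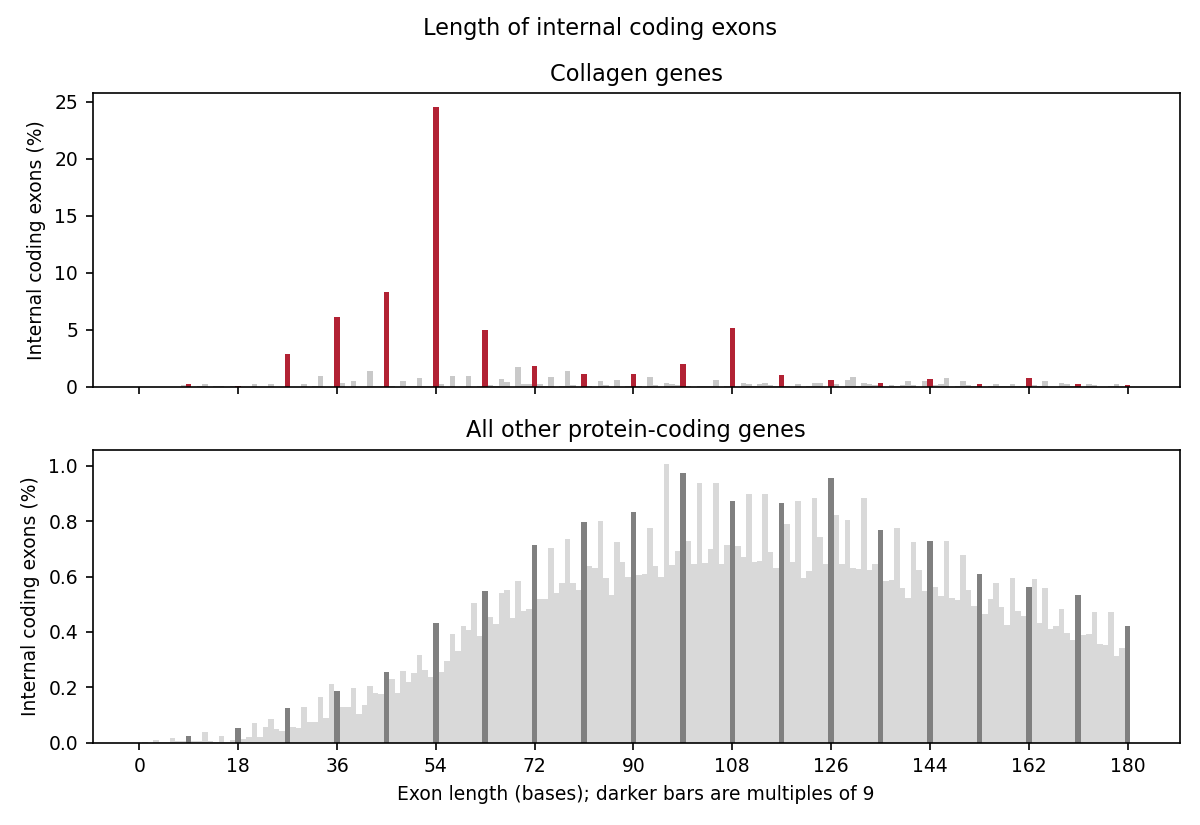
Lengths of internal coding exons in the annotation, as a percent of such exons, for collagen genes (top) and all other protein-coding genes (bottom; the vertical scales differ). Multiples of 9 are darker, and exons over 180 bases (7.57% of collagen exons and 18.3% of others) are not drawn; the peak at 54 bases holds 24.5% of collagen exons and 0.433% of other exons.

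Read depth was similar, at 896941 reads in replicate 1 and 972159 in replicate 2. Levels are given as CPM, the read count scaled to a common library total, relative to the reads on every model class other than the genomic one (reads inside a gene that match no splicing pattern) and without spike-ins. These totals were 858071 and 926560, so that 1 read was worth 1.17 and 1.08 CPM, and a count of 0 allowed up to 3 reads, a one-sided limit of 3.50 and 3.24 CPM. The exact two-sided intervals given for levels end at 4.30 and 3.98 CPM for a count of 0. CPM was not divided by transcript length, because 1 read is 1 molecule. The cardiomyocyte markers summed to 40307 and 40035 CPM, which matches the tissue on the labels. The fibroblast markers (6 of 6 detected) summed to 4209 CPM in replicate 1 and 3374 CPM in replicate 2 (1086 and 1060 CPM without Gsn), the endothelial markers (6 of 6) to 512.8 and 532.1 CPM, and the smooth muscle and pericyte markers (6 of 6) to 1073 and 923.8 CPM. Markers of epicardium (4 of 5 detected) summed to 123.5 and 132.7 CPM, glia (1 of 5) to 15.2 and 5.40 CPM, and valve and cartilage (0 of 6) to 1.17 and 3.24 CPM. Lung markers stood apart in replicate 1: their sum was 137.5 CPM there and 8.63 in replicate 2, almost all of it Scgb1a1, a secreted airway protein, with 111 and 7 reads, while Sftpb had 0 reads in both. The part of these cell and tissue markers in any collagen value was not tested. In bulk tissue, fewer cells of a type and less RNA per cell cannot be told apart.

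Collagen reads made up 0.797% ± 0.023 (SD, n = 2) of each library's reads, with 8133 CPM in replicate 1 and 7815 in replicate 2. A single gene held most of them. Col3a1, the chain of the homotrimeric type III collagen of pliable fibres, took 59.7% and 60.5% of all collagen reads and ranked 16th among all genes by level. Fibrillar genes together held 74.3% ± 0.79 (SD, n = 2) of collagen reads, type IV 20.7% ± 0.17, type VI 3.28% ± 0.40, multiplexins 1.16% ± 0.16 and fibril-associated collagens 0.430% ± 0.061. Transmembrane, short-chain and the remaining collagens each held under 0.1%, with 4 and 5 reads, 4 and 2 reads, and 2 and 4 reads.

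Among the fibrillar genes, Col3a1 (ENSMUSG00000026043.18, chromosome 1, 45311538 to 45349706, mm10) had 4165 reads in replicate 1 and 4381 in replicate 2, or 4854 and 4728 CPM. Col1a1 (chromosome 11, 94936224 to 94953042), the major chain of type I collagen, had 677 and 754 reads, or 789.0 and 813.8 CPM. Col1a2 (chromosome 6, 4504814 to 4541544), the partner chain of type I, had 138 and 134 reads, or 160.8 and 144.6 CPM. The type III chain was thus far above both type I chains in each library, and their intervals did not overlap. The type V chains, which set fibre diameter at the core of type I fibres, were lower: Col5a1 had 78 and 63 reads, Col5a2 54 and 48, and Col5a3 33 and 36. Their intervals overlapped between neighbours in this order within each library. The cartilage-type fibrillar gene Col2a1 had 0 and 1 reads, Col11a2 0 and 1, Col27a1 0 and 1, and Col11a1 and Col24a1 had 0 in both.

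Of the 6 type IV genes, those for the widespread chains of basement membranes led. Col4a2 (chromosome 8, 11312805 to 11449287, plus strand) had 747 and 804 reads, or 870.6 and 867.7 CPM. Col4a1 (chromosome 8, 11198423 to 11312826, minus strand) had 695 and 675 reads, or 810.0 and 728.5 CPM. These genes lie head to head, with annotated starts 21 bases apart and first exons that overlap by 22 bases. The other pairs of type IV genes share that arrangement, with starts 127 bases apart for Col4a3 and Col4a4 and 1309 for Col4a5 and Col4a6. Their levels were near or under the floor: Col4a5 had 4 and 4 reads, Col4a6 had 6 and 2, Col4a4 had 1 and 3, and Col4a3 had 0 and 2.

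The type VI trimer is built from 3 different chains. Col6a1 (chromosome 10, 76708792 to 76726168, minus strand) had 142 reads in replicate 1 and 103 in replicate 2, and Col6a2, its neighbour on the same strand, had 93 and 98. Col6a3, whose chain is the largest of the trimer, had 13 and 14 reads, or 15.2 and 15.1 CPM. Its reference transcript, of 9001 bases, is more than double the length of those of Col6a1 (4100 bases) and Col6a2 (3949 bases). The part of length in its level was not tested. The later-described type VI genes Col6a5 (1 and 0 reads) and Col6a6 (0 and 2) were under the floor, and Col6a4 had 0.

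Col18a1, whose chain carries endostatin at its end, had 60 and 50 reads, and the related Col15a1 had 29 and 26. Among fibril-associated collagens, Col14a1 had 19 and 19 reads and Col16a1 had 12 and 8. Col12a1, Col20a1 and Col22a1 had 1 read each in a single library, and Col19a1 and the 3 type IX genes had 0. Col8a1, a short-chain collagen of vessels and valves, had 3 and 2 reads and Col8a2 had 1 and 0. Col13a1 (3 and 2 reads) and Col23a1 (1 and 3) were the only transmembrane collagens with a read, Col17a1 and Col25a1 having 0. Col26a1 had 1 and 2 reads, Col7a1 1 and 1, and Col28a1 0 and 1. Col10a1, a gene of growth-plate cartilage, had 0 reads on spliced or annotated models, and 7 and 3 of the genomic class. In all, 16 of the 44 genes had at least 3 reads in each library and 15 had a mean of at least 10 reads, and the comparisons below are about these 15. Of the other 29, 19 had a read outside the genomic class, with at most 6 in a library, Col10a1 had reads of that class only, and 9 had none (Col6a4, Col9a1, Col9a2, Col9a3, Col11a1, Col17a1, Col19a1, Col24a1 and Col25a1).

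**Figure D2:**
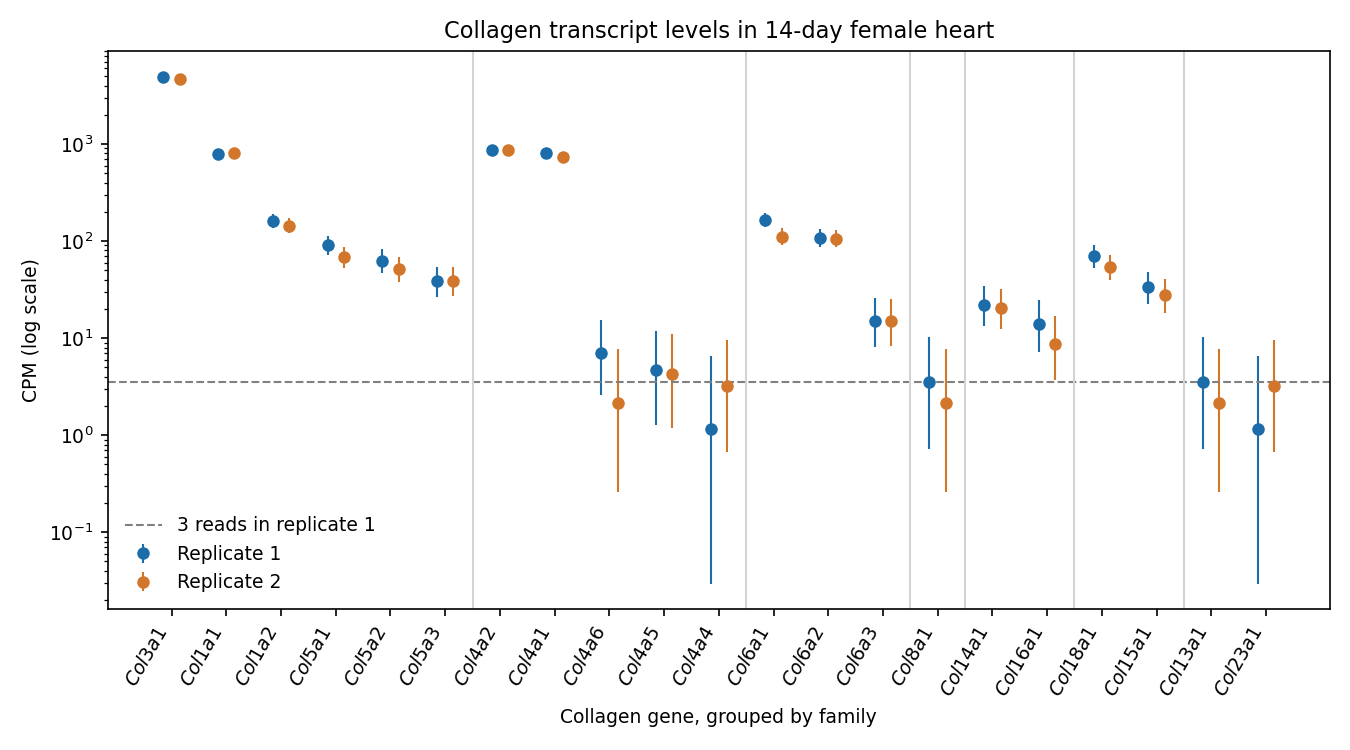
Levels in CPM (log scale) of the 21 collagen genes with at least 3 reads in either library, grouped by family, with exact 95% intervals of the count for each library; the dashed line is the level of 3 reads in replicate 1. Col3a1 lies at 4854 and 4728 CPM, above Col4a2, Col1a1 and Col4a1 between 728.5 and 870.6 CPM, and Col4a4, Col4a5, Col4a6, Col8a1, Col13a1 and Col23a1 lie near 3 reads.

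Shares of reads were taken within pairs of chains that assemble with each other, and then between related genes. Read numbers were far apart in type I and between Col6a3 and Col6a1. For Col4a1, Col6a1 and Col5a1 the interval included an equal share in 1 library each. In type I collagen, whose usual trimer holds 2 chains from Col1a1 and 1 from Col1a2, Col1a1 gave 83.1% (95% exact interval 80.3 to 85.6) of the pair's reads in replicate 1 and 84.9% (82.4 to 87.2) in replicate 2, which is 4.91 and 5.63 reads of Col1a1 for each of Col1a2. In type IV, with the same usual ratio of chains, Col4a1 gave 48.2% (45.6 to 50.8) and 45.6% (43.1 to 48.2). That share depended on which reads were counted: on annotated models alone, which leaves out incomplete reads, it was 64.3% on average. Col6a1 gave 60.4% (53.9 to 66.7) and 51.2% (44.1 to 58.3) of the reads of Col6a1 and Col6a2. Col6a3 gave 8.39% and 11.97% of the reads of Col6a3 and Col6a1. Col5a1 gave 59.1% (50.2 to 67.6) and 56.8% (47.0 to 66.1) of the reads of Col5a1 and Col5a2. Between related genes not taken here as partner chains, Col3a1 gave 86.0% and 85.3% of the reads of Col3a1 and Col1a1. Col15a1 likewise gave 32.6% and 34.2% of the reads of the 2 multiplexin genes. On annotated models alone, the mean share of Col1a1 in its pair was 100% and that of Col6a1 was 0%, as Col1a2 and Col6a1 had no such reads, and that of Col5a1 turned to 30.3%, below Col5a2.

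Replicate 2 was set against replicate 1 gene by gene with an exact binomial test, two-sided, that takes the library totals as given, with Benjamini-Hochberg adjustment over the 10206 genes that had 10 reads or more. It compares 2 libraries and no conditions. Over all genes 10.5% passed at 0.05, and 1 of the 15 collagen genes did. Col6a1 was lower in replicate 2, with 165.5 against 111.2 CPM, a log2 ratio of -0.57 (95% interval -0.95 to -0.20, adjusted exact p = 0.0217). The other 14 had log2 ratios from -0.64 (Col16a1) to 0.04 (Col1a1), with none past the threshold at an adjusted p of 0.312 or above. Log2 ratios were taken after 1 CPM was added to each level, whereas the interval comes from the counts alone. The counts alone give -0.574 for Col6a1 and -0.696 for Col16a1. The median over the 15 was -0.15, against 0.00417 over all genes tested. The Col6a1 call ended with no minimum of reads, at the same log2 ratio of -0.57 (adjusted p = 0.0812 over more genes), and with the genomic class counted (-0.51, adjusted p = 0.0508), when 5 such reads in replicate 2 joined the count. By class, Col6a1 had 60 and 23 reads on incomplete models and 82 and 80 on unannotated spliced models. Class assignment enters this split. In replicate 1, 8 of the incomplete reads were on a single-exon model at the last exon. The 5 reads of a single-exon model there in replicate 2 were of the genomic class. In the fibroblast list 1 of 6 markers was lower in replicate 2, Gsn, an actin-severing protein (3123 against 2314 CPM, adjusted exact p = 6.45e-23). The other 5 had log2 ratios from -0.22 (Pdgfra) to 0.63 (Tcf21), with none past the threshold. In the smooth muscle and pericyte list 1 of 6 was lower, Rgs5 (524.4 against 430.6 CPM, adjusted exact p = 0.0422), and the other 5 ranged from -0.96 (Myh11) to 0.90 (Tagln), with none past the threshold. Of 6 cardiomyocyte markers, Actc1 was higher in replicate 2 (adjusted exact p = 1.62e-05) and Nppa lower (adjusted exact p = 5.04e-08). Scgb1a1 of the lung list was lower (log2 ratio -3.93, adjusted exact p = 1.06e-24). In the endothelial list 0 of 6 passed, and in the epicardial list 0 of the 4 tested. The part of these markers in the value of Col6a1 was not tested.

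Genes that make, process and bind collagen were read from lists of 53 genes, of which 42 had at least 3 reads in each library. Of the 40 tested, 0 differed between the libraries by the exact binomial test, against 10.5% of all genes, and 2 had an unadjusted p under 0.05 (P3h3 and Dcn). Among the 18 genes for folding and hydroxylation, 17 were detected. Serpinh1, the collagen chaperone HSP47, was the highest with 860.1 and 907.7 CPM, close to Col1a1. P4hb, the shared subunit of prolyl 4-hydroxylase, followed with 469.7 and 510.5 CPM. Plod1, a lysyl hydroxylase, had 115.4 and 141.4 CPM and Colgalt1, which adds galactose to hydroxylysine, had 121.2 and 122.0 CPM. Of the catalytic subunits of prolyl 4-hydroxylase, P4ha2 had 86 and 68 reads, P4ha1 30 and 28, and P4ha3 1 and 3.

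For secretion and propeptide processing, 8 of 11 genes were detected. Pcolce, an enhancer of C-propeptide cleavage, had 184.1 and 191.0 CPM. Bmp1, the C-proteinase, had 89.7 and 89.6 CPM, and Adamts2, the N-proteinase, had 83.9 and 79.9 CPM. Sec23a, of the vesicle coat that carries procollagen, had 149.2 and 119.8 CPM. Of the 14 genes for crosslinking and fibril partners 11 were detected. Sparc, which binds collagen outside the cell, had 1365 and 1327 CPM, above every collagen other than Col3a1. Dcn, a small proteoglycan that coats fibres, had 734.2 and 649.7 CPM, and Lum, of the same family, had 256.4 and 292.5 CPM. The crosslinking enzymes were low, with Loxl1 at 33 and 53 reads and Lox at 13 and 10. Of 10 receptors 6 were detected. Itgb1, the beta chain of collagen-binding integrins, had 600.2 and 564.5 CPM. Ddr1 followed with 32.6 and 38.9 CPM and Cspg4 with 18.6 and 24.8 CPM. Itga1, a partner of Itgb1, had 16.3 and 13.0 CPM, while Itga2, Itga10 and Gp6 had 0 reads in both libraries.

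Each read was placed by the deposited processing in a class of transcript model. Known means an annotated chain of introns, incomplete means part of one, and unannotated means a new combination of known splice sites or a site that the annotation lacks. Known models held 66.6% ± 2.3 (SD, n = 2) of collagen reads, against 81.4% ± 0.29 of the reads of all annotated genes. Incomplete models took 27.7% ± 2.2 of collagen reads and 9.24% ± 0.05 of all. New combinations took 1.03% ± 0.11 and new sites 4.61% ± 0.09, against 5.78% and 3.55% of all. No test over samples can be made of these differences with 2 libraries of 1 group. Because Col3a1 holds most of the reads, it set the sum: without it, known models held 37.7% ± 3.0 and incomplete models 54.5% ± 3.1.

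**Figure D3:**
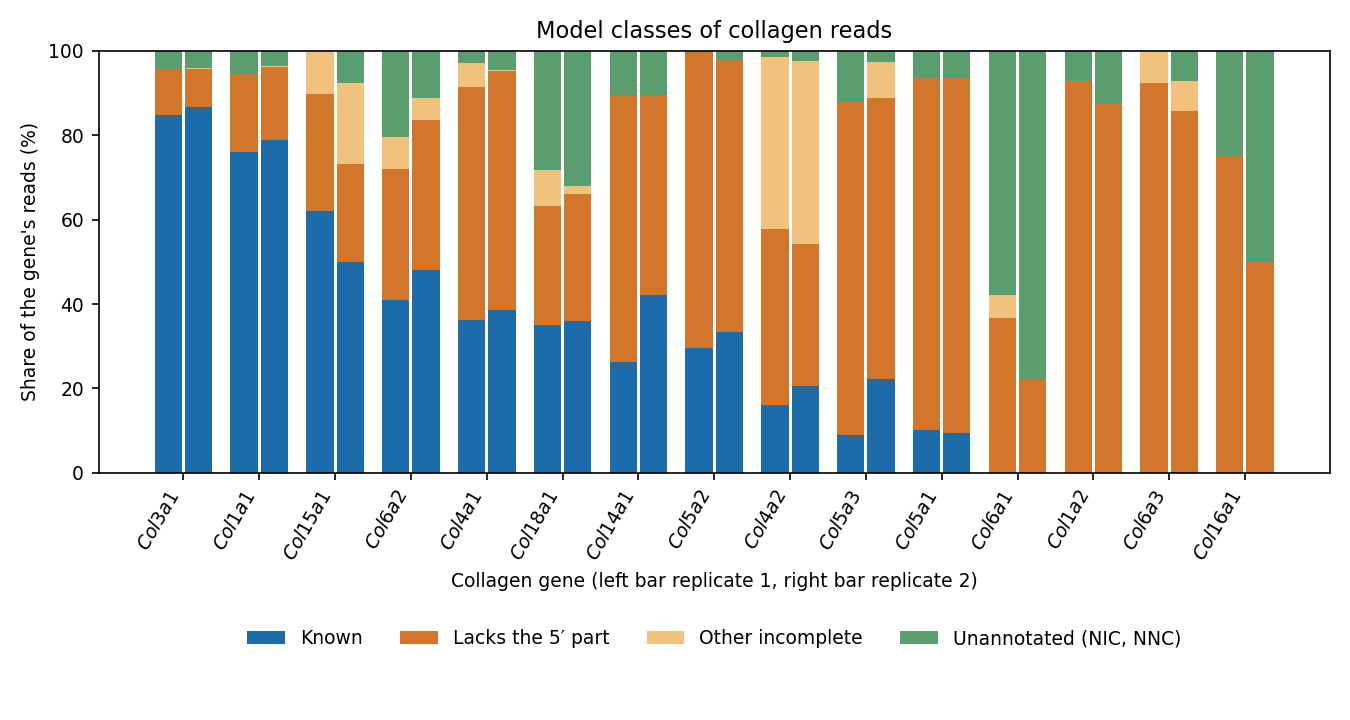
Share of reads (%) of the 15 collagen genes with a mean of at least 10 reads on known, 5′-lacking, other incomplete and unannotated models, with 1 bar per library. Col3a1 and Col1a1 lie mostly on known models, Col4a2 has a large share on other incomplete models, and Col6a1, Col1a2, Col6a3 and Col16a1 have 0 reads on known models.

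The share of incomplete reads ranged widely between genes with at least 20 reads in each library. It was lowest in Col3a1, at 10.9% and 9.13%, followed by Col1a1 at 18.5% and 17.5%. In the middle lay Col18a1 (36.7% and 32.0%), Col6a2 (38.7% and 40.8%), Col15a1 (37.9% and 42.3%) and Col4a1 (61.0% and 56.9%). The highest were Col5a2 (70.4% and 64.6%), Col5a3 (78.8% and 75%), Col4a2 (82.3% and 77.1%), Col5a1 (83.3% and 84.1%) and Col1a2 (92.8% and 87.3%). For some neighbours in this order, such as Col6a2 and Col15a1, the difference was smaller than that between the libraries. Col6a1 varied most, with 42.3% in replicate 1 and 22.3% in replicate 2 (60 of 142 and 23 of 103 reads, Fisher's exact p = 0.00158, adjusted p = 0.125). Of the 12 collagens tested by two-sided Fisher's exact test 0 passed after adjustment over 5162 genes, of which 1.01% passed, and 3 had an unadjusted p under 0.05 (Col3a1, Col6a1 and Col4a2).

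Genes of like transcript length set these shares in context. Among other genes with reference transcripts of 5 to 6 kb, the median incomplete share was 10.4% (216 genes, 10th to 90th percentile 1.24 to 53.5%). Col3a1 (5564 bases, 9.99% on average) and Col1a1 (5930 bases, 17.99%) lay near it, Col15a1 (5172 bases, 40.1%) within the range, and Col1a2 (5348 bases, 90.03%) beyond it. For 6 to 7 kb the median of other genes was 16.4% (119 genes, 1.41 to 65.7%). Col4a1 (6615 bases, 58.9%) lay within this range, and Col5a2 (67.5%), Col5a3 (76.9%) and Col4a2 (79.7%) above it. With 5′-lacking models only, Col4a2 had 37.6%, inside the range of 0.685 to 53.8% of the same 119 genes, whereas Col4a1 (56.0%), Col5a2 (67.5%) and Col5a3 (72.7%) were above it. Col15a1 then had 25.3%, inside 0 to 41.3% for 5 to 6 kb. Col5a1, with 8406 bases, had 83.7% against a median of 11.8% in 152 other genes over 7 kb, whose 90th percentile was 81.2%. The genes Col3a1 and Col1a2 have transcripts of like length and the same exon design, yet their incomplete shares did not overlap in either library (exact intervals 9.92 to 11.8% and 87.1 to 96.5% in replicate 1, 8.29 to 10.0% and 80.5 to 92.4% in replicate 2).

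**Figure D4:**
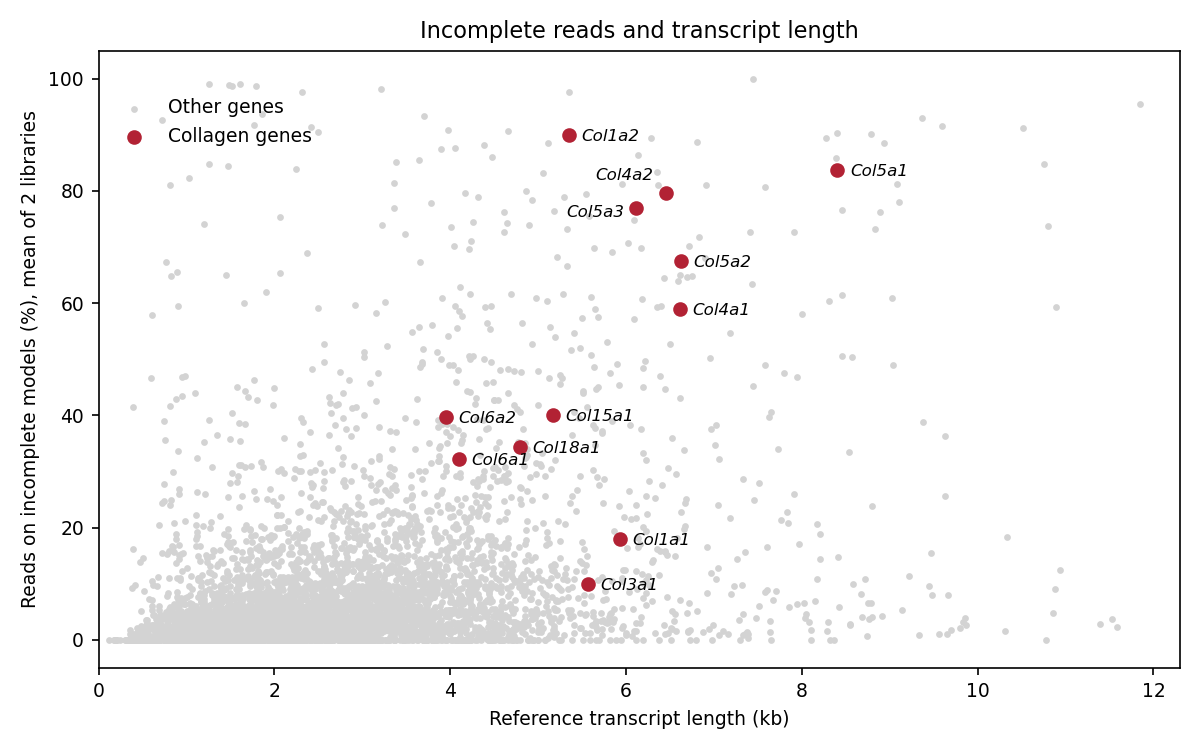
Share of reads on incomplete models (%, mean of both libraries) against reference transcript length (kb) for genes with at least 20 reads in each library, with 12 collagen genes in red and other genes in gray; 15 other genes over 12 kb are not drawn. Col3a1 and Col1a1 lie low at 9.99% and 17.99%, whereas Col1a2 of nearly the same length lies at 90.03%.

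How far reads ran from the 3′ end was followed exon by exon against the annotated form with the most reads, a step chosen after the data had been seen. Col1a2 and Col6a1 had 0 reads on annotated forms and were followed against their reference transcripts. The first exon was reached by 89.1% and 90.9% of Col3a1 reads and by 80.8% and 82.4% of Col1a1 reads. It was reached by 57.0% and 76.7% of Col6a1 reads, 55.9% and 57.1% of Col6a2 reads and 58.3% and 62.0% of Col18a1 reads. In Col4a1 the figures were 38.7% and 42.5%, in Col5a2 29.6% and 33.3%, in Col4a2 17.1% and 21.6%, in Col5a1 14.1% and 14.3%, and in Col5a3 12.1% and 22.2%. Col1a2 was the lowest, with 3.62% (5 of 138 reads) and 7.46% (10 of 134), although 46.4% and 59.0% of its reads reached the middle exon. Its loss was gradual over the 5′ exons: exon 10 was reached by 21.7% and 23.9% of reads and exon 5 by 9.42% and 15.7%.

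In Col4a2 many reads covered the last exon alone. A single-exon model, chr8:11448059-11449287, equal to the last exon of 1229 bases, held 305 reads in replicate 1 and 349 in replicate 2. That was 40.8% (95% exact interval 37.3 to 44.5) and 43.4% (39.9 to 46.9) of the gene's reads. Outside the genomic class, reads confined to the last exon were 0.0720% and 0.205% of Col3a1 reads and 0 and 1 reads of Col1a1. The highest share in the other collagens followed was 8.33%, in Col18a1 in replicate 1 and Col5a3 in replicate 2. Single-exon models within the last exon held further reads of the genomic class, such as 8 and 5 in Col1a1 and 8 and 12 in Col5a1. Reads that reached the first exon numbered 128 and 174 for Col4a2 and 269 and 287 for Col4a1, so that by this measure Col4a1 was the higher of the pair in both libraries. For Col4a1, the single-exon models at the last exon differed by library. In replicate 1, 37 reads were on an incomplete model equal to the last exon, chr8:11198423-11199882. In replicate 2 a different model, chr8:11196400-11199519, held 25 reads of the genomic class, which stayed out of the level. That model overlaps the last exon and runs past the annotated 3′ end of the gene, so whether the reads are of the same kind was not tested.

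**Figure D5:**
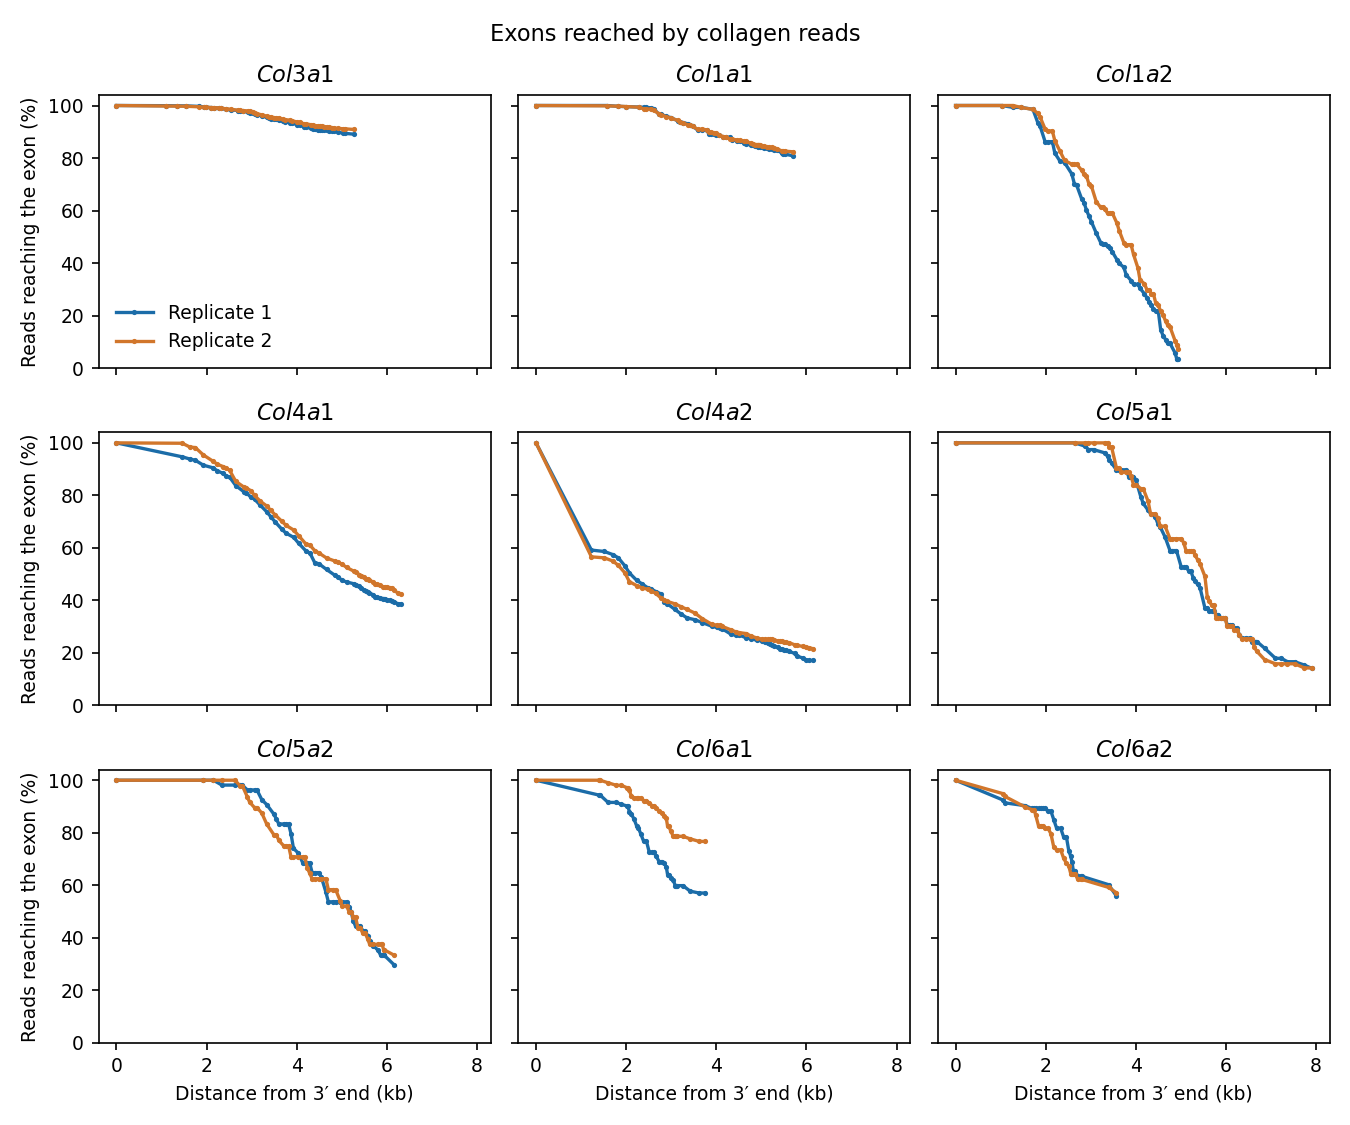
Percent of each gene's reads that reach an exon, against the exon's distance from the 3′ end of the transcript (kb), for 9 collagen genes, with 1 line per library and a point per exon. Col3a1 and Col1a1 stay above 80%, Col1a2 falls to 3.62% and 7.46% at the first exon, and Col4a2 drops at once by the 40.8% and 43.4% of reads confined to its last exon.

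The leading form of each gene was sought among its annotated forms and those unannotated forms that both libraries held at 5 reads or more. The 6 collagens with 20 such reads in each library had 1 dominant form. Col3a1-201 held 98.9% and 98.9% of 3574 and 3844 reads, and Col1a1-201 (515 and 594 reads), Col4a1-201 (251 and 260) and Col4a2-201 (121 and 165) held all of theirs. Col6a2-201 held 88.4% and 88.5%, with 38 of 43 and 46 of 52 reads. A leading share under 90% occurred in 31% of 4348 genes and in 1 of these 6. By Fisher's exact test (two-sided) 0 of the 6 differed from library to library, where 0.023% of all genes passed, and 0 had an unadjusted p under 0.05. Col1a1, Col4a1, Col4a2 and Col6a1 had only 1 form in this count, so their share was 100% by construction and could not differ. Rarer unannotated forms and incomplete reads were left out of it. Only Col3a1 and Col6a2, with more than 1 form, could have shown a difference. Inclusion of an exon was tested where reads either held it or joined the annotated splice sites on both sides of it directly. By that count 0 of the 1055 exons with inclusion between 5 and 95% were in collagens, and 0.379% of the 1055 differed. Exons skipped together or next to a moved splice site are not in this test. In Col18a1, which has more than 1 annotated start, the upstream start of Col18a1-202 was held by 35 of 60 and 31 of 50 reads. Most of the remaining reads, 22 and 15, were on incomplete models and do not show which start was used. The other annotated form seen, Col18a1-203, had 1 and 2 reads.

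Col6a1 was the exception: 0 of its reads matched the annotated form of 35 exons, and an unannotated form of 32 exons held 73 and 71 reads, all of the reads that could be compared by form. In 4.35% of all genes so compared the leading form was unannotated. This form lacks annotated exons 6, 7 and 29. Exons 6 and 7, of 21 bases each, were skipped together, and exon 8 began 37 bases earlier, a net loss of 5 bases. Exon 29, of 9 bases, was skipped, and exon 28 ended 4 bases later, again a net loss of 5 bases. No read held these exons: 0 of 85 and 0 of 81 spanning reads held exon 6 or 7, and 0 of 128 and 0 of 100 held exon 29. By contrast exon 11, of 27 bases, was held by 85 of 91 and 81 of 84. The sequences of the skipped exons, and of 2 exons of the same gene that were held, are printed from mm10 on the minus strand, 5′ to 3′, with glycine codons in capitals.
Col6a1 exon 6, not held, chr10:76721263-76721283: aaaaataacgtggaacaagtg
Col6a1 exon 7, not held, chr10:76721088-76721108: tgttgttcttttgagtgccag
Col6a1 exon 29, not held, chr10:76712865-76712873: cctgctgtg
Col6a1 exon 11, held, chr10:76718979-76719005: GGAgaaaagGGGagccgtGGAgagaag
Col6a1 exon 12, held, chr10:76718517-76718543: GGTtccagaGGAccgaaaGGTtacaag
The skipped exons hold 0 glycine codons, and the held ones hold 3 each, the spacing of the helix. The held exons printed here are also longer, at 27 bases against 21 and 9, and the part of length or sequence was not tested. Whether the bases added next to the skipped exons resemble the skipped ones was not tested, as no intron sequence was used here. Skipped exons and moved edges, here and below, are given as the reads were aligned. Splicing and the placement of reads by the aligner cannot be told apart with these data.

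The same was seen in Col1a2 at its 5′ end. Of the reads that spanned exon 2 (11 bases), 0 of 5 and 0 of 9 held it, and 0 of 5 and 0 of 10 held exon 3 (15 bases). The form with the most reads, 4 and 5, skipped both and had exon 1 end 4 bases later, a net loss of 22 bases. Both skipped exons follow, from mm10, plus strand.
Col1a2 exon 2, not held, chr6:4508335-4508345: atttgcaatcg
Col1a2 exon 3, not held, chr6:4508940-4508954: GGAtcagtacgaaag
No read that spanned these exons held them, and the known class of Col1a2 was empty, with 138 and 134 reads in all. Most of its reads, 92.8% and 87.3%, were on incomplete models, and only 5 and 10 reached the first exon. The part of the skipped exons in the empty class was not tested. Exon 2 was reached by only 3.62% and 8.96% of Col1a2 reads.

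Short exons were not always skipped. Exon 3 of Col5a2, of 14 bases, was held by 18 of 18 and 17 of 17 spanning reads. Exon 4 of Col6a2, of 21 bases, was held by 56 of 59 and 58 of 61. Its exons 8 and 9, of 27 bases, were held by 48 of 61 and 54 of 63 and by 51 of 64 and 54 of 63, and a form of 5 and 5 reads skipped both with 52 bases added to exon 7. In Col4a1 exon 14, of 27 bases, was held by 294 of 298 and 313 of 323, and a form of 3 and 9 reads skipped it with 20 bases added to exon 13. The exons of Col6a2 and Col4a1 named here are printed from mm10, minus strand, to set beside the ones that were not held.
Col6a2 exon 4, chr10:76614109-76614129: aaacatgaagcctatGGAgag
Col6a2 exon 8, chr10:76611416-76611442: GGTgtgcctGGCttcaagGGAgagaag
Col6a2 exon 9, chr10:76611163-76611189: GGTgaatttGGAtcggatGGTcggaag
Col4a1 exon 14, chr8:11240041-11240067: GGTcagaaaGGTgaacctGGAtttccg
As the reads were aligned, net losses of 2 bases in the Col6a2 form and 7 bases in the Col4a1 form are, like those of Col6a1 and Col1a2, not multiples of 3.

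All genes were treated the same way for comparison, over internal exons with at least 20 spanning reads in each library, an analysis chosen after the data had been seen. Of 61 exons of up to 20 bases in other genes, 73.8% were held by under 50% of reads, and the median was 0%. From 21 to 26 bases 19.3% of 83 exons were held by under 50%, and from 27 to 35 bases 3.59% of 334. In collagens, the 1 exon of up to 20 bases and 2 of the 3 from 21 to 26 bases were held by under 50%. The collagen median from 21 to 26 bases was 0%, against 97.8% in other genes. It was 96.3% for 15 exons of 27 to 35 bases, with 0 under 50%. From 36 to 53 bases, 2 of 62 collagen exons were held by under 50%, against 2.65% of 1586 others. For 136 collagen exons of 54 bases the median was 100%, and none was held by under 97.3%. Of 177 other exons of 54 bases, 5.65% were held by under 50%. In collagens 5 of 448 exons (1.12%) were held by under 50%, against 542 of 38008 (1.43%) in other genes, and all 5 belonged to Col6a1: the 3 skipped exons and exons 8 and 28, which appear with a moved edge.

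Unannotated spliced forms were many and mostly rare. Collagens had 380 of them with 394 and 407 reads, of which 55 occurred in both libraries and 5 had at least 5 reads in each. Col3a1 alone had 169. In 135 forms at least 1 annotated exon was absent. A single moved splice site was the difference from an annotated form of as many exons in 123 forms (122 when set against the nearest annotated form only), and 46 of the 123, or 37.4%, had a donor site moved by 4 bases, against 10.4% of 19224 such forms in all other genes. A shift of 3 bases was found in 4.88% of the collagen forms and 8.91% of the others. In Col3a1, 24 forms had the donor moved by 4 bases, at several introns, with 66 and 83 reads together. The most frequent of them extended an exon by 4 bases, so that its intron began at position 45332031 of chromosome 1 in place of 45332027, and had 21 and 27 reads, or 0.504% and 0.616% of the gene's reads. Forms of Col3a1 and other collagens share the gene and its exon design, so these shares are descriptions and carry no test.

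The deposited 3′ ends of unannotated and incomplete models, 1 per model, were grouped after the data had been seen. In Col1a1, 97.5% and 98.8% of such reads (158 of 162 and 158 of 160) lay on models that end 1195 bases before the annotated end. In Col3a1, 98.6% and 89.6% lay on models ending 688 to 690 bases before it, and in Col5a2, 71.1% and 78.1% on models ending 1457 to 1459 bases before it. In Col4a2 and Col6a1 all such reads were on models that end at the annotated end. Known models carry the annotated end whatever their reads did, so these shares say nothing of the 3536 and 3802 known reads of Col3a1.

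Promoter windows from RefSeq (GRCm38.p6, 250 bases before to 50 after a start) were matched by symbol for 35 of the 44 genes, with 38 windows. Searched on both strands, CCAAT was in 34.2% of collagen windows and 37.4% of 32851 windows of all genes, TATAAA in 13.2% and 13.6%, and GGGCGG in 60.5% and 35.7%. The motifs were searched without regard to overlap, and a match is a run of letters, not a site. In the windows of the head-to-head pair, CCAAT began 32 bases before the start of Col4a2 and 145 before that of Col4a1, Col3a1 had TATAAA 117 bases before its start, and Col1a2 had CCAAT 109 bases before.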

How the data were processed

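Heart RNA of 1 group was analysed in 2 long-read libraries. The values deposited are whole-number read counts, 1 for each transcript model and library. Per the text deposited beside them, each library was quantified alone from filtered alignments, on mm10 with the M21 release of GENCODE, and the file headers name TALON as the source of the models. For the aligner, filter settings and versions the answer is: not given in the sources used here. Exon structures came from the deposited model annotations, and exon and model lengths are in bases.

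Counts were summed per gene over classes other than genomic and divided by library totals (858071 and 926560 reads, spike-ins excluded) to give CPM. Models of both libraries were matched by chromosome, strand and introns. Reads per gene (minimum 10 over both libraries) were tested with exact binomial tests, and leading form, incomplete share and exon inclusion (minimum 20 reads in each) with Fisher's exact test, all two-sided, with Benjamini-Hochberg adjustment over all features and a threshold of 0.05. Intervals are exact at 95% (Clopper-Pearson for shares) and cover counting error only. A gene's reference transcript is the APPRIS principal form with the longest coding sequence. Values are given for collagens with a mean of at least 10 reads, and read numbers for the rest. Alternatives counted the genomic class, took annotated models alone, used TMM totals (edgeR 4.0.16), changed minimums or left out a library. Those without Col3a1 were added after the data had been seen. Members and lists were chosen with earlier results of these data known. Python 3.11.15 and scipy 1.17.1 were used, and the tests were tried on simulated data.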

Additional observations from a re-analysis of the deposited data

Results flagged for a closer look

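Some reads on collagen genes lay outside the measurement used above. Reads of the genomic class on collagen genes numbered 35 in replicate 1 and 78 in replicate 2, above the 3 reads that a count of 0 allows. In replicate 2, 27 of them were on Col4a1, which had 0 such reads in replicate 1, and Col5a1 had 8 and 12, Col18a1 0 and 9, Col4a4 2 and 7, and Col10a1 7 and 3. Antisense models that overlap collagen genes on the other strand held 31 and 21 reads. Of these, Col4a1 had 9 and 3, Col1a1 5 and 3, Col5a2 4 and 2, and Col4a2 1 and 5. There are no control samples to set these values against, and what the reads are was not tested.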

How the results depend on the processing

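The collagen sum of 7974 CPM became 6781 on annotated models alone and 3183 without Col3a1, and was 7815 to 8133 in the single libraries. The number of collagens that differed between the libraries, 1 by the main test, was 0 with no minimum of reads (34 tested), 0 with the genomic class counted (17 tested) and 0 on annotated models alone (11 tested, among which Col6a1 is not, as it has no such reads). Over all genes 120 differed on annotated models alone, where 1072 did by the main test. Directions that reversed, all of them without a call, were those of Col14a1 (log2 ratio 0.50), Col6a2 (0.18) and Col4a2 (0.32) on annotated models alone, and of Col5a3 (-0.15) with the genomic class counted. TMM totals changed the direction or call of 0 of the 15 log2 ratios.

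The incomplete share of 27.7% was 22.4% with 5′-lacking models only and 54.5% without Col3a1, and 26.2 to 29.3% in the single libraries. The number of genes whose incomplete share differed was 9 with 5′-lacking models only, in place of 52. Genes with a differing leading form numbered 2 at a minimum of 50 reads, in place of 1, and exons with differing inclusion 0 with incomplete models counted and 2 at a minimum of 50 reads, in place of 4. Collagens detected numbered 18 to 19 in the single libraries. With annotated models alone, 7 of 8 chain-pair shares moved by more than the spread between the libraries. Depth limits the 29 genes under a mean of 10 reads, whose order cannot be told at these counts. No paired analysis was possible because there was only 1 group.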
